A study of Mesocricetus auratus and Mus musculus with 214 samples.

Results

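The genes described here are maternal mRNA deadenylation and decay factors of the golden hamster, the proteins that shorten the poly(A) tails of stored oocyte transcripts and remove those transcripts. A list of 10 genes was used (Btg4, Cnot1, Cnot6, Cnot6l, Cnot7, Tob1, Tob2, Zfp36l2, Ythdf2 and Pabpn1l), and all 10 were found by their NCBI gene IDs among the 36133 genes of the expression tables. They were read in oocytes and embryos by stage and genotype, and in male germ cells for contrast.

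Oocytes accumulate mRNA while they grow and transcribe little from the end of growth until the embryonic genome starts to be read, so the stored transcripts are regulated through their poly(A) tails. CCR4-NOT is the main deadenylase of animal cells: CNOT1 is its scaffold, CNOT6 and CNOT6L are alternative catalytic subunits of the CCR4 type, and CNOT7 is a catalytic subunit of the CAF1 type. Adaptors bring the complex to transcripts: BTG4, TOB1 and TOB2 bind the CAF1 subunit, ZFP36L2 binds AU-rich elements, YTHDF2 binds N6-methyladenosine, and PABPN1L is a poly(A)-binding protein that works with BTG4 in mouse oocytes.

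RNA was sequenced from WT and Piwi mutant golden hamsters (Mesocricetus auratus). The mutants carry Cas9-made alleles and are homozygous. GV oocytes (arrested in meiotic prophase), MII oocytes (arrested at metaphase of the second meiotic division) and embryos at 11, 34 and 54 h.p.e.a. (hours post egg activation) were taken from WT and Piwil3-/- females. The WT groups held 3 GV, 4 MII, 5 11 h.p.e.a., 4 34 h.p.e.a. and 2 54 h.p.e.a. libraries, and the Piwil3-/- groups held 3, 4, 5, 3 and 2. Embryos named Piwil3-/- are maternal mutants, so the sperm carried a WT allele. Further MII oocyte libraries came from WT (3), Piwil2-/- (3) and Piwil4-/- (2) females. Of these, only the WT libraries have MII2 in their titles, and they are called WT MII2 here. WT MII2 was chosen as the control of Piwil2-/- and Piwil4-/-, with WT MII as an alternative. Male germ cells of adult testes came as 7 WT stages with 2 libraries each, and as 4 sorted fractions (SPG/PL, LZ, P and D) of WT and Piwil1-/- males with 30 libraries in all. The paper calls the oocyte and embryo replicates biological. The labels do not say whether libraries of a group came from separate animals, so p-values measure the spread between these libraries, which may be partly technical.

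Values of oocytes, embryos and sorted fractions are fragments per kilobase of gene relative to 10000 reads of ERCC spike-in RNA, called normalised values here. They follow the fragments counted for a transcript against a fixed amount of added RNA. The part of poly(A) tail length in these counts was not tested, so a change in value is not read as a change in amount alone. Of the 43 oocyte and embryo libraries, each held between 5667 and 16169 genes above 0, and a single fragment in a gene of 1 kb gave a value between 0.0102 and 1.23. The targeted gene was lower in Piwil3-/- than in WT at GV (log2 difference -1.54, limma adjusted p = 0.0059), MII (-1.15, adjusted p = 0.017) and 11 h.p.e.a. (-1.46, adjusted p = 0.0023). At 34 and 54 h.p.e.a. Piwil3 was at 0 in every WT library (0 to 0.196 and 0.00736 to 0.0110 in the mutant), so it does not check the labels there. Piwil4 was lower in Piwil4-/- oocytes (-2.10, limma adjusted p = 0.025), while Piwil2 was too low to test (0.670 to 1.94 in WT and 0.243 to 2.40 in Piwil2-/-). The oocyte markers Gdf9, Bmp15, Zp3 and Figla were all above 0 in both GV groups. Genes were tested with limma on log2(value + 1) over all genes, and a call means an adjusted p under 0.05. At low values this scale understates a change.

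Btg4 was among the most abundant transcripts of the GV oocyte. Its normalised values were 5974, 6573 and 5179 in the 3 WT GV libraries, ranks 46 to 53 among all genes. Pabpn1l followed with 1219, 1388 and 1074, ranks 323 to 389. The BTG4 adaptor and its poly(A)-binding partner thus stood above every CCR4-NOT subunit of the list, on a scale that accounts for gene length. Cnot7 (398, 362 and 422) and Ythdf2 (371, 271 and 207) came next, and their ranges overlapped. Tob1 (93.1, 70.9 and 48.7) and Tob2 (55.7, 55.8 and 71.6) also overlapped, and both were above Cnot6l (45.5, 39.5 and 47.3). The scaffold Cnot1 was lower, at 29.5, 25.3 and 30.8, and Cnot6 lower again, at 8.98, 9.45 and 13.1. Zfp36l2 was the lowest member at 1.75, 4.29 and 5.82. The level of Cnot6l was higher than that of Cnot6 in all 3 libraries, with a ratio of their normalised values between 3.61 and 5.07. This order is a description of levels and was not tested.

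**Figure D1:**
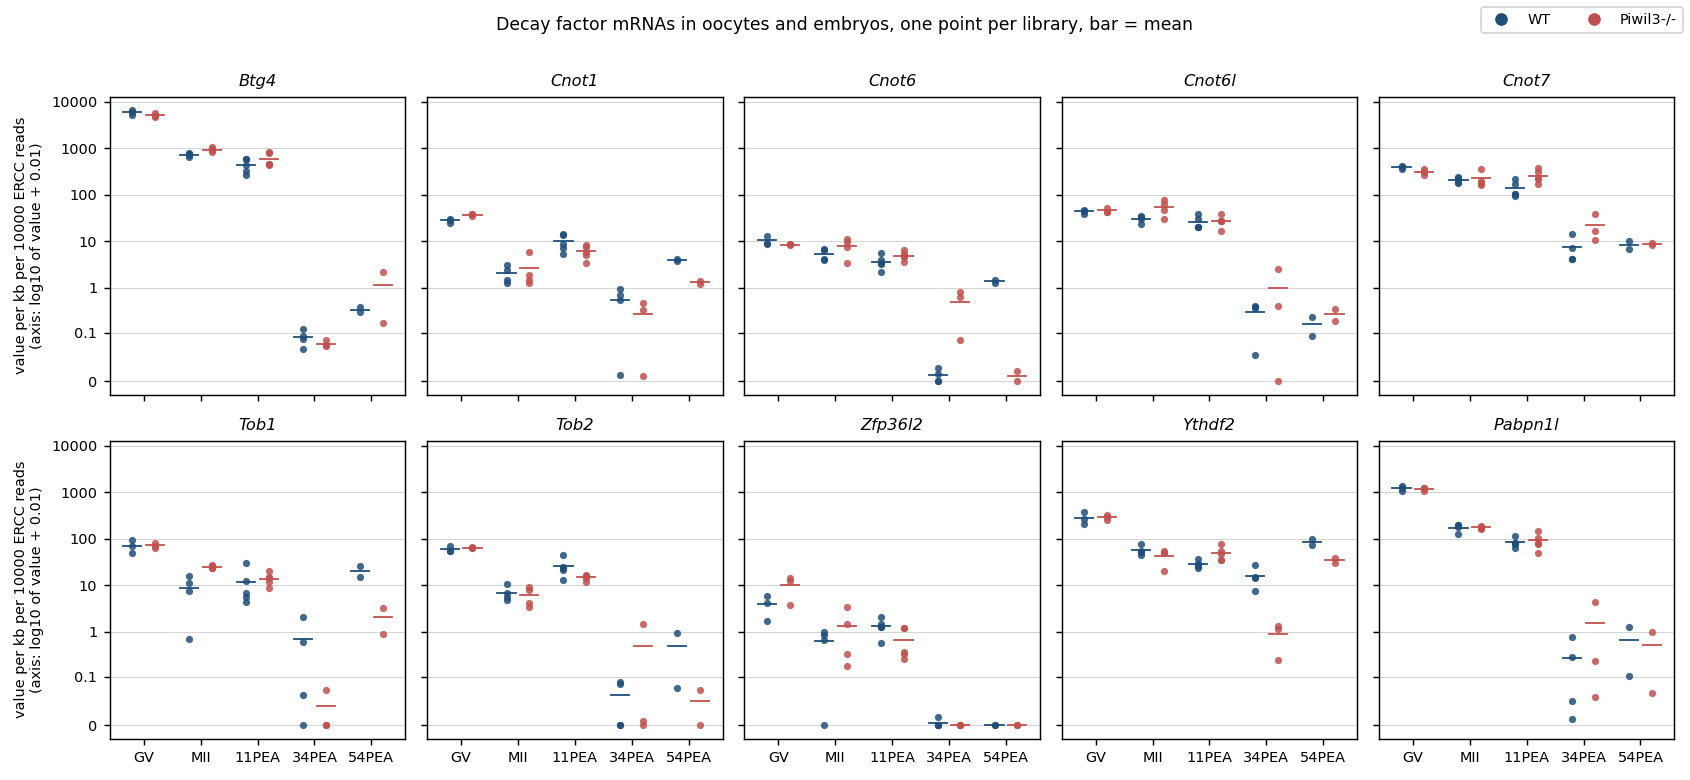
Normalised value of each of the 10 genes by stage (GV, MII, and 11, 34 and 54 h.p.e.a.) on a log axis of the value plus 0.01, with 1 point per library for WT and Piwil3-/- and the group mean marked. WT Btg4 goes from 5179 to 6573 at GV to 0.0392 to 0.121 at 34 h.p.e.a., while WT Ythdf2 stays between 7.76 and 26.97 at 34 h.p.e.a. and Piwil3-/- Ythdf2 lies between 0.235 and 1.33.

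From GV to MII in WT, 8 of the 9 genes tested fell and 1, Cnot6l, was not called. Of all 12066 genes tested, 90.9% fell and 0.0746% rose, with a median log2 difference of -2.68, so the number of falling members was close to the background and nothing is read from it. What differed between members was the size of the fall. Btg4 had values of 770, 641, 780 and 712 at MII, 12.3% of its GV mean, and no library overlapped with GV (log2 difference -3.02 ± 0.29 (SE), limma adjusted p = 6.4e-11, exact permutation p = 0.0286, the smallest that 4 against 3 libraries allow). Cnot1 fell to 7.18% of its GV mean (2.40, 1.46, 1.28 and 3.05, log2 difference -3.31 ± 0.37, adjusted p = 1.1e-09). Against this WT MII group, the log2 differences of the catalytic subunits were smaller than that of their scaffold. Cnot6l had 23.99, 30.98, 35.2 and 33.2 at MII, 69.95% of its GV mean (log2 difference -0.51 ± 0.34, limma adjusted p = 0.15), and Cnot7 had 176, 232, 192 and 238, 53.2% of its GV mean (-0.92 ± 0.38, adjusted p = 0.024). Cnot6 had 4.13, 3.98, 6.86 and 6.53, 51.2% of its GV mean (-0.87 ± 0.32, adjusted p = 0.012). Against the median of all genes these 3 were higher by 2.17 (Cnot6l), 1.77 (Cnot7) and 1.82 (Cnot6) on the log2 scale, and their sign turned when libraries were scaled to equal totals (1.72, 1.395 and 1.09) or by median ratios (1.44, 1.20 and 0.73). The WT MII2 libraries did not enter this contrast. In them Cnot1 was 10.3 to 11.0, Cnot6 1.63 to 2.68, Cnot6l 13.6 to 32.6 and Cnot7 147 to 222. The order of the falls of Cnot1 and Cnot6 thus depends on the WT group.

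The adaptors fell from GV to MII with most genes. Tob1 had 7.68, 11.2, 0.688 and 15.6 at MII (log2 difference -3.24 ± 0.55, limma adjusted p = 3.1e-06), and the lowest of these rests on 3 fragments. Tob2 had 6.91, 10.7, 5.72 and 4.75 (-2.99 ± 0.36, adjusted p = 7.3e-09). Pabpn1l had 194, 127, 182 and 196 (-2.82 ± 0.39, adjusted p = 1.1e-07). These 3 sat at 11.5% to 14.2% of their GV means, close to the median fall of all genes. In WT MII2, which did not enter the contrast, Tob1 was 4.41 to 6.02, Tob2 16.4 to 29.4 and Pabpn1l 89.96 to 126. Ythdf2 had 52.3, 54.7, 78.1 and 45.9, 20.4% of its GV mean (-2.26 ± 0.35, adjusted p = 7.1e-07), and its difference was 0.043 when libraries were scaled to equal totals. Zfp36l2 was at 0.967 or lower in all 4 libraries and was not tested. At equal totals the falls of Btg4 (-0.70, limma adjusted p = 0.16), Cnot1 (-1.26, adjusted p = 0.16), Tob1 (-1.07, adjusted p = 0.29), Tob2 (-0.78, adjusted p = 0.41) and Pabpn1l (-0.50, adjusted p = 0.68) were not called. By median ratios Btg4 was still called lower (-0.88), and Cnot1 (-1.09, adjusted p = 0.10), Tob1 (-1.005, adjusted p = 0.21), Tob2 (-0.85, adjusted p = 0.22), Ythdf2 (-0.14, adjusted p = 0.81) and Pabpn1l (-0.68, adjusted p = 0.49) were not. The calls of Cnot6 and Cnot7 rested on single libraries. Without WT GV replicate 4, the log2 difference of Cnot6 was -0.71 (limma adjusted p = 0.065), and that of Cnot7 was -0.87 (adjusted p = 0.063). Cnot7 also lost its call without WT GV replicate 1 (-0.91, adjusted p = 0.054) or WT MII replicate 1 (-0.84, adjusted p = 0.055).

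Between MII and 11 h.p.e.a. in WT the 9 genes tested moved both ways, 2 higher and 3 lower, where 17.4% of all 8272 genes rose and 6.61% fell. Cnot1 and Tob2 rose against the WT MII group. Cnot1 had 5.38, 14.5, 9.04, 7.13 and 13.96 at 11 h.p.e.a. and did not overlap with MII (log2 difference 1.81 ± 0.32, limma adjusted p = 0.00013). Tob2 had 12.8, 43.9, 21.7, 23.7 and 25.4, also above all MII libraries (1.67 ± 0.32, adjusted p = 0.00029). Btg4 (590, 599, 270, 447 and 329), Ythdf2 (28.8, 29.5, 25.6, 37.8 and 23.8) and Pabpn1l (79.1, 116, 63.8, 82.5 and 83.2) were all below every MII library. Their log2 differences were -0.76 ± 0.26 (Btg4, limma adjusted p = 0.029), -0.96 ± 0.31 (Ythdf2, adjusted p = 0.025) and -1.04 ± 0.35 (Pabpn1l, adjusted p = 0.029). Cnot6 (-0.46), Cnot6l (-0.26), Cnot7 (-0.65 ± 0.33, adjusted p = 0.15) and Tob1 (0.49) were not called. The WT MII2 libraries did not enter this contrast. In them Cnot1 was 10.3 to 11.0 and Tob2 16.4 to 29.4. Btg4 was 471 to 558, Ythdf2 17.7 to 60.2 and Pabpn1l 89.96 to 126. Each of these ranges overlapped with that at 11 h.p.e.a., so the rises and falls hold for WT MII alone.

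The 3 falls from MII to 11 h.p.e.a. lay close to the threshold, and each was lost when single libraries were left out. Btg4 lost it without 11 h.p.e.a. replicate 2 (-0.60, limma adjusted p = 0.098) or 3 (-0.67, adjusted p = 0.078), or MII replicate 1 (-0.73, adjusted p = 0.066), 4 (-0.73, adjusted p = 0.070) or 5 (-0.77, adjusted p = 0.051). Ythdf2 lost it without 11 h.p.e.a. replicate 3 (-0.89, adjusted p = 0.058) or MII replicate 4 (-0.80, adjusted p = 0.093). Pabpn1l lost it without 11 h.p.e.a. replicate 2 (-0.94, adjusted p = 0.067) or MII replicate 1 (-0.98, adjusted p = 0.068), 4 (-1.01, adjusted p = 0.062) or 5 (-0.98, adjusted p = 0.067). The falls were also not called at equal totals (Btg4 -0.54, Ythdf2 -0.75, Pabpn1l -0.82) or by median ratios (-0.68, -0.86 and -0.95), nor was the rise of Tob2 at equal totals (1.92, limma adjusted p = 0.053). Of the WT 11 h.p.e.a. libraries, 2 are titled 8PEA. Without both 8PEA libraries the Pabpn1l call was lost (-1.01, limma adjusted p = 0.059) and Cnot7 was called lower (-1.01, adjusted p = 0.035).

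By 34 h.p.e.a. in WT, Ythdf2 and Cnot7 were the members with the highest levels and most others were below 1. All 9 genes tested fell from 11 h.p.e.a., where 86.4% of all 7478 genes fell, 6.33% rose and the median log2 difference was -2.96. Btg4 had values of 0.0831, 0.0707, 0.121 and 0.0392, resting on 3 to 8 fragments per library (log2 difference -8.63 ± 0.26, limma adjusted p = 5.5e-24). Its mean was 0.0013% of the GV mean. Pabpn1l (0.00329, 0.0224, 0.773 and 0.285) fell by 6.09 on the log2 scale (adjusted p = 5.6e-17), Tob2 (0, 0.0751, 0 and 0.0665) by 4.58 (adjusted p = 7.5e-15) and Cnot6l (0.410, 0.387, 0.372 and 0.0260) by 4.35 (adjusted p = 9.1e-15). Cnot7 had 4.25, 7.41, 14.4 and 4.16 (-4.11 ± 0.33, adjusted p = 3.5e-13), which was below every 11 h.p.e.a. library but kept it second among the members. Cnot1 (-2.78, adjusted p = 9.6e-10), Tob1 (-2.78, adjusted p = 2.9e-06) and Cnot6 (-2.18, adjusted p = 7e-09) fell as well, the last to 4 fragments or fewer in each library. All of these 8 genes were without overlap between stages (exact permutation p = 0.00794, the smallest that 5 against 4 libraries allow). The share of all genes without overlap was not counted, so nothing is read from their number. By median ratios Cnot7 (-0.10, limma adjusted p = 0.76), Cnot1 (-0.47, adjusted p = 0.37) and Tob1 (-0.70, adjusted p = 0.26) were not called.

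Ythdf2 fell least. It had 7.76, 15.04, 26.97 and 14.1 at 34 h.p.e.a., and the highest of these lay within the 11 h.p.e.a. range (log2 difference -0.93 ± 0.31, limma adjusted p = 0.0062, exact permutation p = 0.0238). Counted against the total of each library its share was higher, 349 ± 96 per 1000000 (SD, n = 4) against 64.7 ± 9.3 at 11 h.p.e.a. (n = 5), and its sign turned when libraries were scaled to equal totals (2.38) or by median ratios (3.16). Without WT 34 h.p.e.a. replicate 1 the fall was -0.65 (adjusted p = 0.054). The total of all normalised values was 1.70% of the GV total in this group.

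Between 34 and 54 h.p.e.a. in WT, 4 of the 9 genes tested rose and none fell, against 40.8% of all 7982 genes higher and 4.22% lower. Tob1 had 25.9 and 15.1 at 54 h.p.e.a. against 0.0339, 0, 2.11 and 0.597 at 34 h.p.e.a. (log2 difference 3.79 ± 0.63, limma adjusted p = 1.4e-05). Ythdf2 had 99.0 and 74.2, above all 34 h.p.e.a. libraries (2.47 ± 0.39, adjusted p = 6.8e-06), and this was not called after scaling to equal totals (0.50) or by median ratios (0.64). Cnot1 had 3.87 and 4.10 (1.72 ± 0.41, adjusted p = 0.00085; not called at equal totals, 1.43, or by median ratios, 1.39) and Cnot6 had 1.48 and 1.30 (1.25 ± 0.34, adjusted p = 0.0031). Btg4 (0.376 and 0.290), Cnot6l (0.234 and 0.0826), Tob2 (0.0533 and 0.945) and Pabpn1l (0.104 and 1.24) had at most 1.24 and were not called, and Zfp36l2 was at 0 in both libraries. Cnot7 had 6.83 and 10.3 and was not called (0.29), and its sign turned after scaling to equal totals (-1.68) or by median ratios (-1.53). The CCR4-type subunits had changed places: the ratio of Cnot6l to Cnot6 was 0.0637 and 0.158 in these libraries, against 5.07 to 12.1 at 11 h.p.e.a. With 2 libraries at 54 h.p.e.a. the smallest exact permutation p is 0.0667.

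At GV, Piwil3-/- oocytes had no member past the threshold among 10 tested, where 1.17% of all 13534 genes were higher and 1.02% lower. By limma, 0 members were called and 1, Zfp36l2, had an unadjusted p under 0.05. Btg4 had 5779, 4628 and 4883 in Piwil3-/- (log2 difference -0.21 ± 0.31), and Pabpn1l had 1234, 1056 and 1210 (-0.07 ± 0.42). Both groups overlapped for these genes. Cnot1 was higher in every Piwil3-/- library (38.997, 37.996 and 34.9, 0.38 ± 0.39) and Cnot6 lower in every one (8.21, 8.64 and 8.81, -0.25 ± 0.34), and neither was called. Zfp36l2 had 3.82, 12.2 and 14.3 in Piwil3-/- against 1.75, 4.29 and 5.82 in WT (1.10 ± 0.42, limma adjusted p = 0.29), and without Piwil3-/- GV replicate 2 it was called (1.62, adjusted p = 0.027). Summed granulosa and cumulus cell markers were 7.64 to 11.7 in WT GV and 8.09 to 28.8 in Piwil3-/- GV, with Fshr and Ptx3 at 0 in both groups and 4 of 7 matched markers above 0 in each. Their part in the Zfp36l2 difference was not tested.

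**Figure D2:**
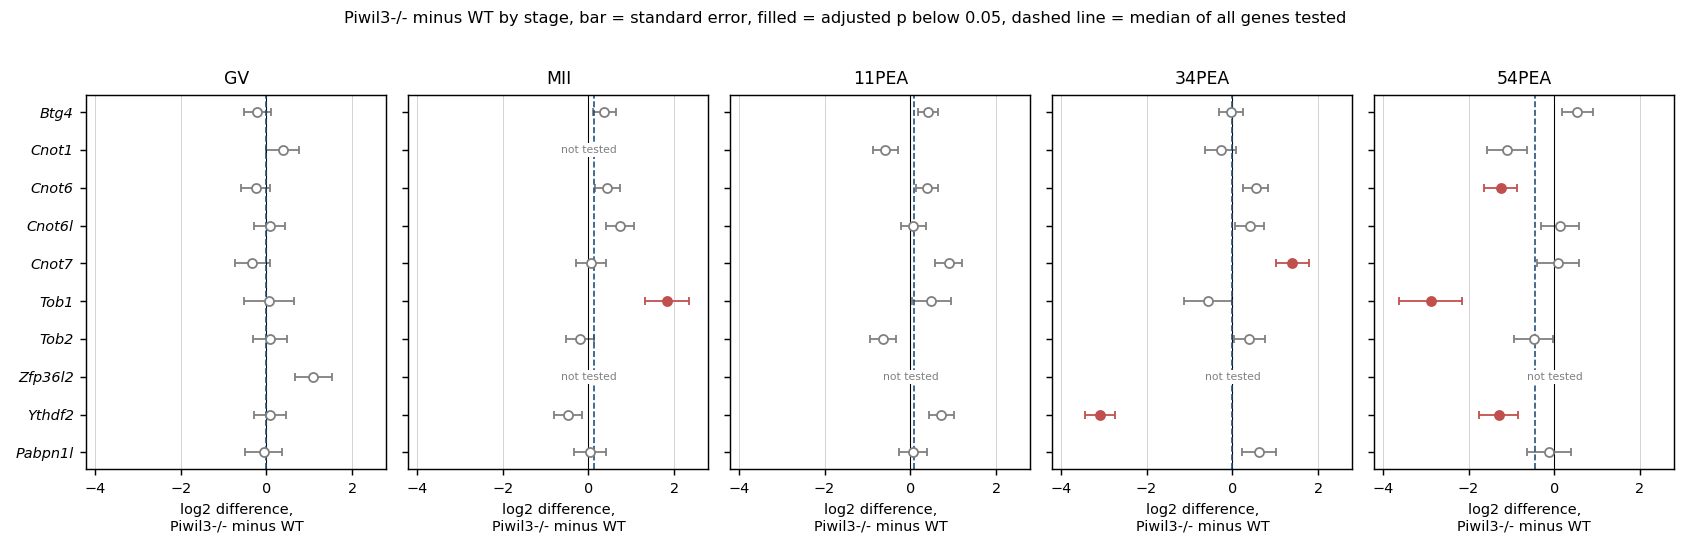
Log2 difference of each gene in Piwil3-/- minus WT at the 5 stages, with the standard error as a bar, filled points for an adjusted p under 0.05 and a dashed line at the median of all genes tested. Ythdf2 lies at -3.09 at 34 h.p.e.a. and at -1.30 at 54 h.p.e.a., and no gene is called at GV or 11 h.p.e.a.

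At MII, 1 of 8 members tested, Tob1, was called higher in Piwil3-/- oocytes, where 3.11% of all 7502 genes were higher and 1.95% lower. Its values were 23.9, 24.2, 27.1 and 26.2 in Piwil3-/- and 7.68, 11.2, 0.688 and 15.6 in WT, with no overlap (log2 difference 1.84 ± 0.51, limma adjusted p = 0.030, exact permutation p = 0.0286, a ratio of means of 2.89). The 4 mutant libraries lay within a narrow range and the WT libraries did not. The call was lost without Piwil3-/- MII replicate 1 (1.86, adjusted p = 0.052), 3 (1.80, adjusted p = 0.064) or 5 (1.82, adjusted p = 0.066), and WT MII replicate 4, whose value rests on 3 fragments, moved it most (1.13 without it, adjusted p = 0.15). It was also lost with a pseudocount of 0.1 (2.15, adjusted p = 0.21), without the filter on low values (1.84, adjusted p = 0.063), at equal totals (1.77, adjusted p = 0.42), by median ratios (1.47, adjusted p = 0.41) and with both groups alone (1.84, adjusted p = 0.082). Summed granulosa and cumulus markers were 5.12, 8.98, 0 and 14.2 in WT MII replicates 1, 2, 4 and 5 (3 of 7 matched markers, with Amh, Fshr, Foxl2 and Ptx3 at 0) and 0 in all 4 Piwil3-/- MII libraries. Their part in the Tob1 difference was not tested.

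Other members did not pass the test at MII against the WT MII group. Btg4 had 905, 961, 824 and 1070 in Piwil3-/- and was above every WT library (770, 641, 780 and 712), though by little (0.37 ± 0.27, limma adjusted p = 0.48, exact permutation p = 0.0286). Cnot6l had 46.6, 30.6, 63.7 and 77.05 (0.73 ± 0.32, adjusted p = 0.18) and overlapped with WT at its lowest library. Cnot6 (0.44), Cnot7 (0.05), Tob2 (-0.20), Ythdf2 (-0.47) and Pabpn1l (0.03) were not called. Cnot1 and Zfp36l2 were too low to test. With WT MII2 in place of WT MII, Btg4 (0.89, limma adjusted p = 0.023), Cnot6 (1.49, adjusted p = 0.00045) and Cnot6l (1.18, adjusted p = 0.013) were called higher. Tob2 was then called lower (-1.78, adjusted p = 0.00033). The calls of these genes thus depend on the WT group.

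At 11 h.p.e.a. no member was called among 9 tested, where 0.857% of all 8747 genes were higher and 0.732% lower. By limma, 0 were called and 3 (Cnot7, Tob2 and Ythdf2) had an unadjusted p under 0.05. Cnot7 had 168, 225, 214, 369 and 305 in maternal Piwil3-/- embryos and 216, 107, 96.2, 172 and 106 in WT (log2 difference 0.89 ± 0.31, limma adjusted p = 0.13, exact permutation p = 0.0397). The highest WT library was the one titled 8PEA replicate 1, and without it Cnot7 was called (1.07, adjusted p = 0.046), as it was without both libraries of that title (1.25, adjusted p = 0.022). Ythdf2 had 47.7, 35.8, 54.7, 77.2 and 34.8 against 28.8, 29.5, 25.6, 37.8 and 23.8 in WT (0.72 ± 0.29, adjusted p = 0.19), and the groups overlapped. Tob2 had 16.9, 14.4, 15.3, 11.9 and 16.04 against 12.8 to 43.9 in WT (-0.64 ± 0.30, adjusted p = 0.25). Btg4 (0.41), Cnot1 (-0.59), Cnot6 (0.38), Cnot6l (0.07), Tob1 (0.49) and Pabpn1l (0.07) were not called, and each overlapped between groups.

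At 34 h.p.e.a. Ythdf2 was lower in maternal Piwil3-/- embryos. Its values were 0.235, 1.16 and 1.33 in the mutant against 7.76, 15.04, 26.97 and 14.1 in WT, so every WT library was above every mutant library. The means were 0.910 and 15.98, 17.6-fold lower in the mutant (log2 difference -3.09 ± 0.35, limma adjusted p = 1.9e-08, exact permutation p = 0.0286, the smallest that 3 against 4 libraries allow). These values rest on 35, 328 and 185 fragments in the mutant and on 1742 to 3631 in WT. Ythdf2 ranked 467 to 712 among all genes in WT and 2095 to 4951 in the mutant. As a share of the library total it was 32.3 ± 23 per 1000000 (SD, n = 3) in the mutant and 349 ± 96 (n = 4) in WT. The call and its sign held in every alternative run, including those that leave out 1 library.

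Of the 9 members tested at 34 h.p.e.a., Cnot7 was the other one called, in the opposite direction. In all 8032 genes tested, 14.8% were higher and 21.1% lower. Cnot7 had 38.7, 17.2 and 10.6 in the mutant and 4.25, 7.41, 14.4 and 4.16 in WT (means 22.2 and 7.56, log2 difference 1.40 ± 0.38, limma adjusted p = 0.0035). The groups overlapped (exact permutation p = 0.0857). The call rested on Piwil3-/- 34 h.p.e.a. replicate 1, without which the difference was 0.92 (adjusted p = 0.070), and it was lost when only both groups entered the fit (1.40, adjusted p = 0.12).

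Cnot6 had 0.624, 0.0653 and 0.794 in the mutant at 34 h.p.e.a., resting on 176, 35 and 209 fragments, while the WT libraries had 4, 1, 0 and 0 fragments. No library overlapped (exact permutation p = 0.0286). All of these values are below 1, where the scale compresses differences (0.54 ± 0.29, limma adjusted p = 0.16), and Cnot6 was called higher with a pseudocount of 0.1 (2.20, adjusted p = 0.00036) and after scaling to equal totals (3.11, adjusted p = 8.4e-07). Pabpn1l had 0.0298, 4.42 and 0.229 in the mutant against 0.00329 to 0.773 in WT (0.62 ± 0.39, adjusted p = 0.25) and was called without Piwil3-/- replicate 1 (1.06, adjusted p = 0.049). Btg4 was at 0.0470, 0.0495 and 0.0672, within the WT range. Cnot1 (-0.28), Cnot6l (0.40), Tob1 (-0.57) and Tob2 (0.39) overlapped and were not called.

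The oocyte markers Gdf9, Bmp15, Zp3 and Figla summed to 10.7, 27.8, 11.0 and 5.48 in WT at 34 h.p.e.a. and to 168, 73.7 and 113 in maternal Piwil3-/- embryos, without overlap. In WT 4 of 4 markers were above 0, and in the mutant 3, with Figla at 0. The part of the markers in the Cnot7 and Ythdf2 results was not tested. Granulosa and cumulus markers were at 0 in both groups.

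At 54 h.p.e.a. 3 of the 9 members tested were lower in maternal Piwil3-/- embryos and none higher, where 4.46% of all 9407 genes were higher, 22.6% lower and the median log2 difference was -0.46. Each group held 2 libraries, for which the smallest exact permutation p is 0.333. Tob1 had 0.875 and 3.23 in the mutant against 25.9 and 15.1 in WT, 9.99-fold lower by the means (log2 difference -2.88 ± 0.74, limma adjusted p = 0.0037). Ythdf2 had 29.9 and 39.3 against 99.0 and 74.2, 2.50-fold lower (-1.30 ± 0.45, adjusted p = 0.032). Cnot6 rested on 1 and 0 fragments in the mutant against 1.48 and 1.30 in WT (-1.25 ± 0.39, adjusted p = 0.016). These 3 genes did not overlap between groups, nor did Cnot1 (1.22 and 1.41 against 3.87 and 4.10, -1.11 ± 0.46, adjusted p = 0.077). How many of all genes did not overlap was not counted, so nothing is read from this number. Cnot7 overlapped (8.60 and 9.40 against 6.83 and 10.3, 0.08 ± 0.49), and Btg4 had 0.166 and 2.20 (0.54 ± 0.36, adjusted p = 0.31).

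The calls at 54 h.p.e.a. rested on single libraries. Tob1 was lost without Piwil3-/- replicate 2 (-2.30, limma adjusted p = 0.071). Cnot6 was lost without Piwil3-/- replicate 2 (-1.25, adjusted p = 0.067) or 4 (-1.25, adjusted p = 0.061), or WT replicate 1 (-1.20, adjusted p = 0.078) or 5 (-1.30, adjusted p = 0.056). Ythdf2 was lost in the same 4 settings (-1.11, adjusted p = 0.18, -1.49, adjusted p = 0.054, -1.09, adjusted p = 0.18, and -1.502, adjusted p = 0.059). Ythdf2 was not called after scaling to equal totals (-0.31) or by median ratios (-0.29), and its share of the total was 390 ± 65 per 1000000 in the mutant and 483 ± 64 in WT. Tob1 was lost at equal totals (-2.45, adjusted p = 0.079), and all 3 calls were lost with both groups alone (adjusted p = 0.087 to 0.093). Cnot7 was called higher by median ratios (1.09, adjusted p = 0.048), and Btg4 without Piwil3-/- replicate 2 (1.26, adjusted p = 0.019). Granulosa and cumulus markers summed to 4.01 and 0.982 in WT (1 of 7 matched genes above 0, Foxl2) and to 0 in the mutant, and their part in these differences was not tested.

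The change between stages was compared between genotypes by interaction contrasts. From 11 to 34 h.p.e.a., 1 of 9 members, Ythdf2, was called, where 9.73% of all 7372 genes were higher and 12.2% lower. Its fall was larger in maternal Piwil3-/- embryos by 3.80 ± 0.46 on the log2 scale (limma adjusted p = 1.4e-07), from 34.8 to 77.2 down to 0.235 to 1.33. Tob2 gave 1.04 ± 0.47 (adjusted p = 0.12) and was called without the WT library titled 8PEA replicate 1 (1.25, adjusted p = 0.045) or without both (1.32, adjusted p = 0.042), and by median ratios (1.76, adjusted p = 0.048). Cnot6 was called with a pseudocount of 0.1 (1.73, adjusted p = 0.030), after scaling to equal totals (2.91, adjusted p = 0.00026) and by median ratios (1.97, adjusted p = 0.00063), and Cnot7 at equal totals (1.38, adjusted p = 0.023). From 34 to 54 h.p.e.a. 2 of 9 members were called, where 13.3% of all 7949 genes were higher and 19.8% lower. Ythdf2 rose by more in the mutant (1.79 ± 0.57, limma adjusted p = 0.016), and Cnot6 went down in the mutant and up in WT (-1.79 ± 0.49, adjusted p = 0.0050). The Ythdf2 contrast was lost without Piwil3-/- 34 h.p.e.a. replicate 1 (1.502, adjusted p = 0.053), Piwil3-/- 54 h.p.e.a. replicate 4 (1.598, adjusted p = 0.075) or WT 54 h.p.e.a. replicate 5 (1.58, adjusted p = 0.082), and with the compared groups alone (1.79, adjusted p = 0.10).

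Other members missed the threshold of the 34 to 54 h.p.e.a. contrast and crossed it without single libraries. Tob1 gave -2.32 ± 0.92 (limma adjusted p = 0.051), which was -2.90 (adjusted p = 0.039) without Piwil3-/- 54 h.p.e.a. replicate 4 and -2.67 (adjusted p = 0.026) without WT 34 h.p.e.a. replicate 4. Cnot7 gave -1.31 (adjusted p = 0.11), which was -1.72 (adjusted p = 0.033) without Piwil3-/- 34 h.p.e.a. replicate 5 and -1.65 (adjusted p = 0.031) without WT 34 h.p.e.a. replicate 4. Btg4 gave 0.57 (adjusted p = 0.39), which was 1.29 (adjusted p = 0.038) without Piwil3-/- 54 h.p.e.a. replicate 2. These contrasts share their 34 h.p.e.a. libraries with those from 11 to 34 h.p.e.a.

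Piwil2-/- MII oocytes had no member past the threshold against the WT MII2 libraries. Of 9 tested, 0 were called by limma and 1, Tob2, had an unadjusted p under 0.05, where 0.193% of all 8818 genes were higher and 0.034% lower. Tob2 had 13.6, 11.98 and 10.2 in Piwil2-/- and 22.4, 29.4 and 16.4 in WT, without overlap (log2 difference -0.85 ± 0.39, limma adjusted p = 0.56, exact permutation p = 0.1, the smallest that 3 against 3 allow). Btg4 was higher in every Piwil2-/- library (668, 668 and 695 against 558, 493 and 471, 0.42 ± 0.24), as was Cnot6 (8.30, 2.70 and 4.48 against 1.63, 1.80 and 2.68, 0.93 ± 0.53), and neither was called. With the other WT MII group in place of MII2, Cnot1 was called higher (1.64, adjusted p = 0.016) where it had been -0.32, and Pabpn1l lower (-0.81, adjusted p = 0.022).

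Piwil4-/- MII oocytes had 3 members higher and 2 lower of 9 tested, where 2.76% of all 9189 genes were higher, 17.7% lower and the median log2 difference was -0.40. The adaptors Btg4 and Tob1 and the partner Pabpn1l were higher, and Cnot1 and Tob2 lower. Btg4 had 1033 and 1618 against 558, 493 and 471 (log2 difference 1.35 ± 0.27, limma adjusted p = 0.0028, ratio of means 2.61). Pabpn1l had 207 and 303 against 89.96, 126 and 106 (1.23 ± 0.32, adjusted p = 0.013), and Tob1 had 13.02 and 21.6 against 4.41, 5.87 and 6.02 (1.48 ± 0.49, adjusted p = 0.045). Cnot1 had 2.62 and 1.89 against 10.3, 11.0 and 10.4 (-1.84 ± 0.48, adjusted p = 0.014, 4.69-fold lower), and Tob2 had 4.78 and 6.34 against 22.4, 29.4 and 16.4 (-1.83 ± 0.44, adjusted p = 0.0083, 4.09-fold lower). None of these 5 genes overlapped between groups, nor did Cnot6 (1.12, adjusted p = 0.20) and Cnot6l (0.81, adjusted p = 0.20), and the smallest exact permutation p is 0.1. The share of all genes without overlap was not counted, so nothing is read from the number of such members. Cnot7 (-0.25) and Ythdf2 (0.36) overlapped.

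The labels do not state which WT group belongs to which mutant. With WT MII in place of MII2 the call of Btg4 held, and the other 4 were lost: Cnot1 was at 0.13 (limma adjusted p = 0.95), Tob1 at 1.27 (adjusted p = 0.45), Tob2 at -0.25 (adjusted p = 0.87) and Pabpn1l at 0.54 (adjusted p = 0.37). Single libraries also mattered. Without Piwil4-/- replicate 4, Cnot1 (-1.67, adjusted p = 0.068) and Pabpn1l (0.95, adjusted p = 0.095) were lost, and without Piwil4-/- replicate 2, Tob2 was (-1.66, adjusted p = 0.057). Tob1 was lost without any single library, at 1.13 to 1.82 (adjusted p = 0.068 to 0.27), and with a pseudocount of 0.1 (adjusted p = 0.053), without the filter (adjusted p = 0.067) or with both groups alone (adjusted p = 0.056). Cnot6l was called higher by median ratios (1.15, adjusted p = 0.040). Both mutants share the MII2 libraries. The WT MII2 values of Cnot1 (10.3 to 11.0) and Tob2 (16.4 to 29.4) lay above those of WT MII (1.28 to 3.05 and 4.75 to 10.7), and Btg4 (471 to 558) lay below (641 to 780). Oocyte markers summed to 1320 to 1500 in WT MII2, 1064 to 1594 in Piwil4-/- and 508 to 610 in WT MII (4 of 4 above 0 in each). The difference between the WT groups was not tested.

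**Figure D3:**
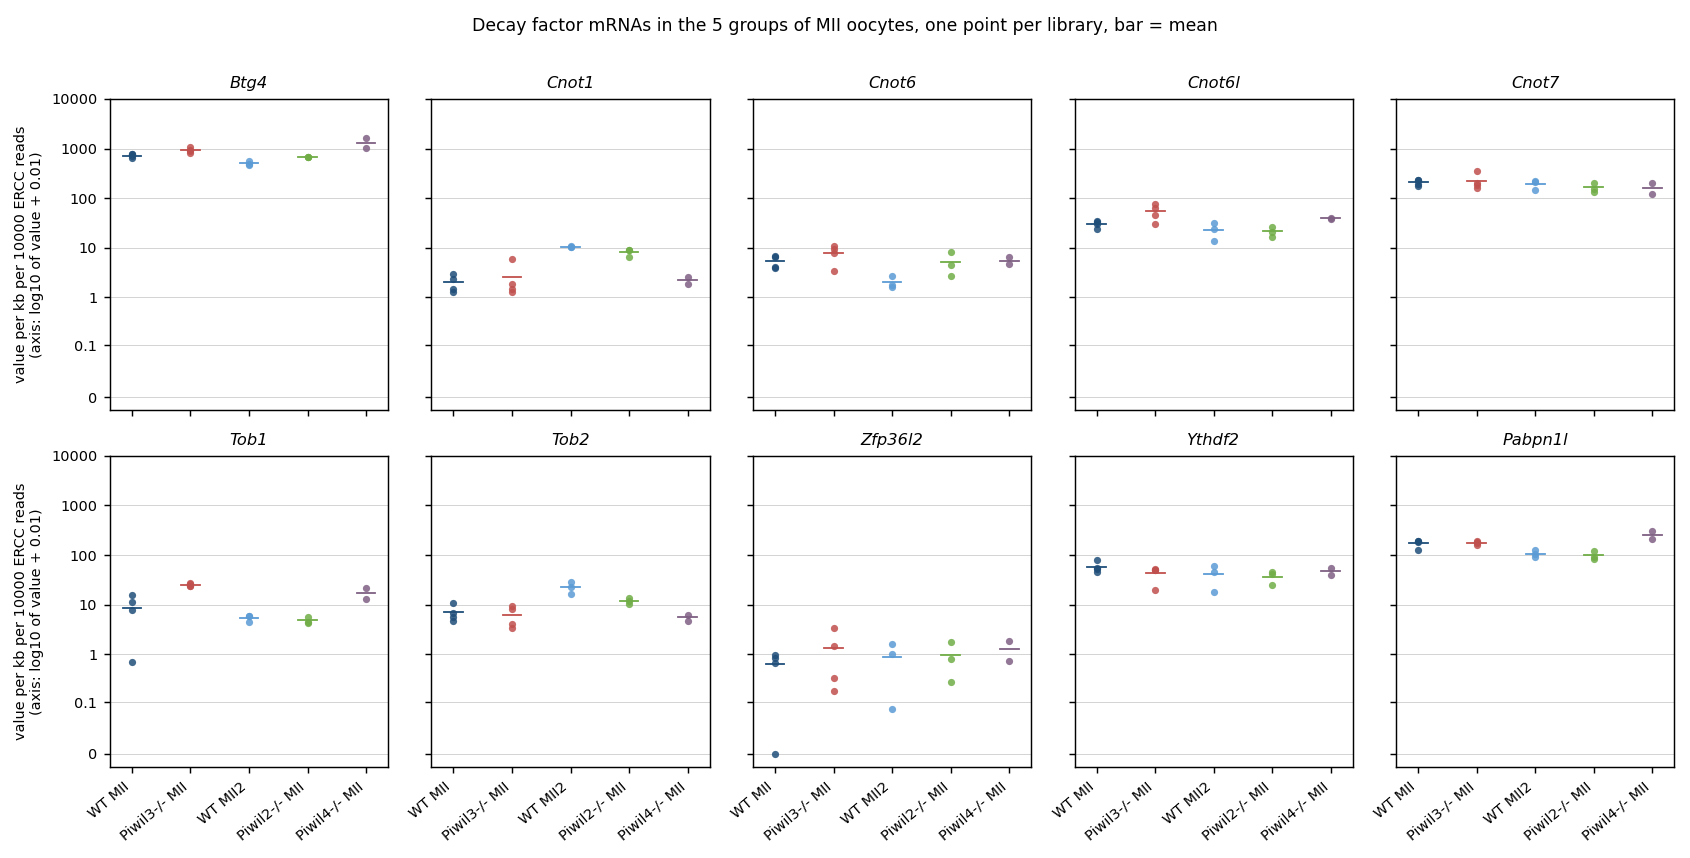
Normalised value of each gene in MII oocytes on a log axis of the value plus 0.01, 1 point per library, for WT, Piwil3-/-, WT MII2, Piwil2-/- and Piwil4-/-, with the group mean marked. Cnot1 and Tob2 are higher in WT MII2 (10.3 to 11.0 and 16.4 to 29.4) than in WT MII (1.28 to 3.05 and 4.75 to 10.7), and Piwil4-/- Btg4 reaches 1033 and 1618.

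A wider list of 38 genes of the same pathways was read beside the members: 10 other deadenylase subunits, 17 decapping and exonuclease genes, and 11 genes of poly(A) tail binding and lengthening. In Piwil3-/- at 34 h.p.e.a., 2 of 9, 2 of 15 and 3 of 10 tested genes of these groups were higher, and 0, 1 and 1 lower. Pabpc1l, the poly(A)-binding protein of oocytes and early embryos, had the lowest p: it was 5.61 to 10.2 in the mutant and 0.00900 to 0.0264 in WT (log2 difference 3.18 ± 0.25, limma adjusted p = 1.4e-11). Pabpc1, the form of somatic cells, was lower (0 to 1.29 against 0.306 to 13.7, -1.69 ± 0.48, adjusted p = 0.0057). Ybx2, an RNA-binding protein of germ cells, was higher (0.701 to 3.74 against 0 to 0.123, 1.58 ± 0.56, adjusted p = 0.026). Among deadenylase subunits, Pan3 of the PAN2-PAN3 complex (1.17 ± 0.29, adjusted p = 0.0018) and Cnot4 (0.86 ± 0.26, adjusted p = 0.0082) were higher. The decapping enzyme Dcp2 (1.30 ± 0.34, adjusted p = 0.0028) and its activator Dcp1a (1.39 ± 0.32, adjusted p = 0.00068) were higher, and the exosome nuclease Exosc10 lower (-1.73 ± 0.41, adjusted p = 0.0011). The background was as for the members, 14.8% higher and 21.1% lower.

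At 54 h.p.e.a. the called genes of the wider list were all lower in the mutant, 4 of 10, 2 of 16 and 3 of 11, against 22.6% of all genes. They included the subunits Cnot11 (0 in both mutant libraries against 4.66 and 9.46) and Cnot8 (0.523 and 0.966 against 4.38 and 6.71, -1.90 ± 0.57, limma adjusted p = 0.013), and the poly(A)-specific ribonuclease Parn (0.278 and 3.57 against 11.2 and 15.1, -2.53 ± 0.68, adjusted p = 0.0054). The exonuclease Dis3 (-2.43, adjusted p = 0.0044) and the uridylyltransferase Tut4 (-1.33, adjusted p = 0.0020) were also lower, with the poly(A) polymerase Tent2 (0 in both mutant libraries against 2.76 and 6.38). Ybx2, higher in the mutant at 34 h.p.e.a., was lower here (-2.60, adjusted p = 0.0085).

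At GV, none of the 35 genes of the wider list tested in Piwil3-/- oocytes passed the threshold. At MII, Dcp2 was higher (24.6 to 67.2 against 12.5 to 25.3, log2 difference 1.22 ± 0.32, limma adjusted p = 0.023) and Pabpc1l lower (26.7 to 49.6 against 73.3 to 113, -1.15 ± 0.25, adjusted p = 0.0054). At 11 h.p.e.a. Cnot11 was lower (-1.64, adjusted p = 0.049). In Piwil4-/- oocytes 1 of 9, 4 of 14 and 5 of 10 tested genes of these groups were called, 4 higher and 6 lower in all. Of all genes, 2.76% were higher and 17.7% lower. These calls are against WT MII2, and the wider list was not tested with WT MII or under any other alternative. Pabpc1l was lower (5.93 and 33.6 against 157 to 269, -3.83 ± 0.51, adjusted p = 0.00015) and Pabpc1 higher (29.9 and 52.02 against 2.81 to 10.2, 2.46 ± 0.52, adjusted p = 0.0037). Patl2, an oocyte repressor of translation, was lower in them too (31.3 and 52.5 against 117 to 186, -1.90 ± 0.33, adjusted p = 0.0010).

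Male germ cells gave a different order of the same genes. Values of the WT spermatogenesis stages are FPKM and are not on the scale of the oocyte values. In sorted cell pools a transcript lower in fewer cells and one lower in every cell cannot be told apart. The spermatid gene Tnp1 was 88.8 to 197 FPKM in spermatogonia and 1809 to 2464 in round sperm, and its part in the stage values was not tested. In spermatogonia Btg4 was at 0 in both libraries and Pabpn1l at 1.505 and 1.04 FPKM, the lowest members, whereas Ythdf2 was the highest (98.0 and 88.8). Cnot7 (42.3 and 55.3) and Cnot1 (36.9 and 40.6) came next. Btg4 and Pabpn1l, at the top of the list in the GV oocyte, were thus at its bottom in spermatogonia.

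**Figure D4:**
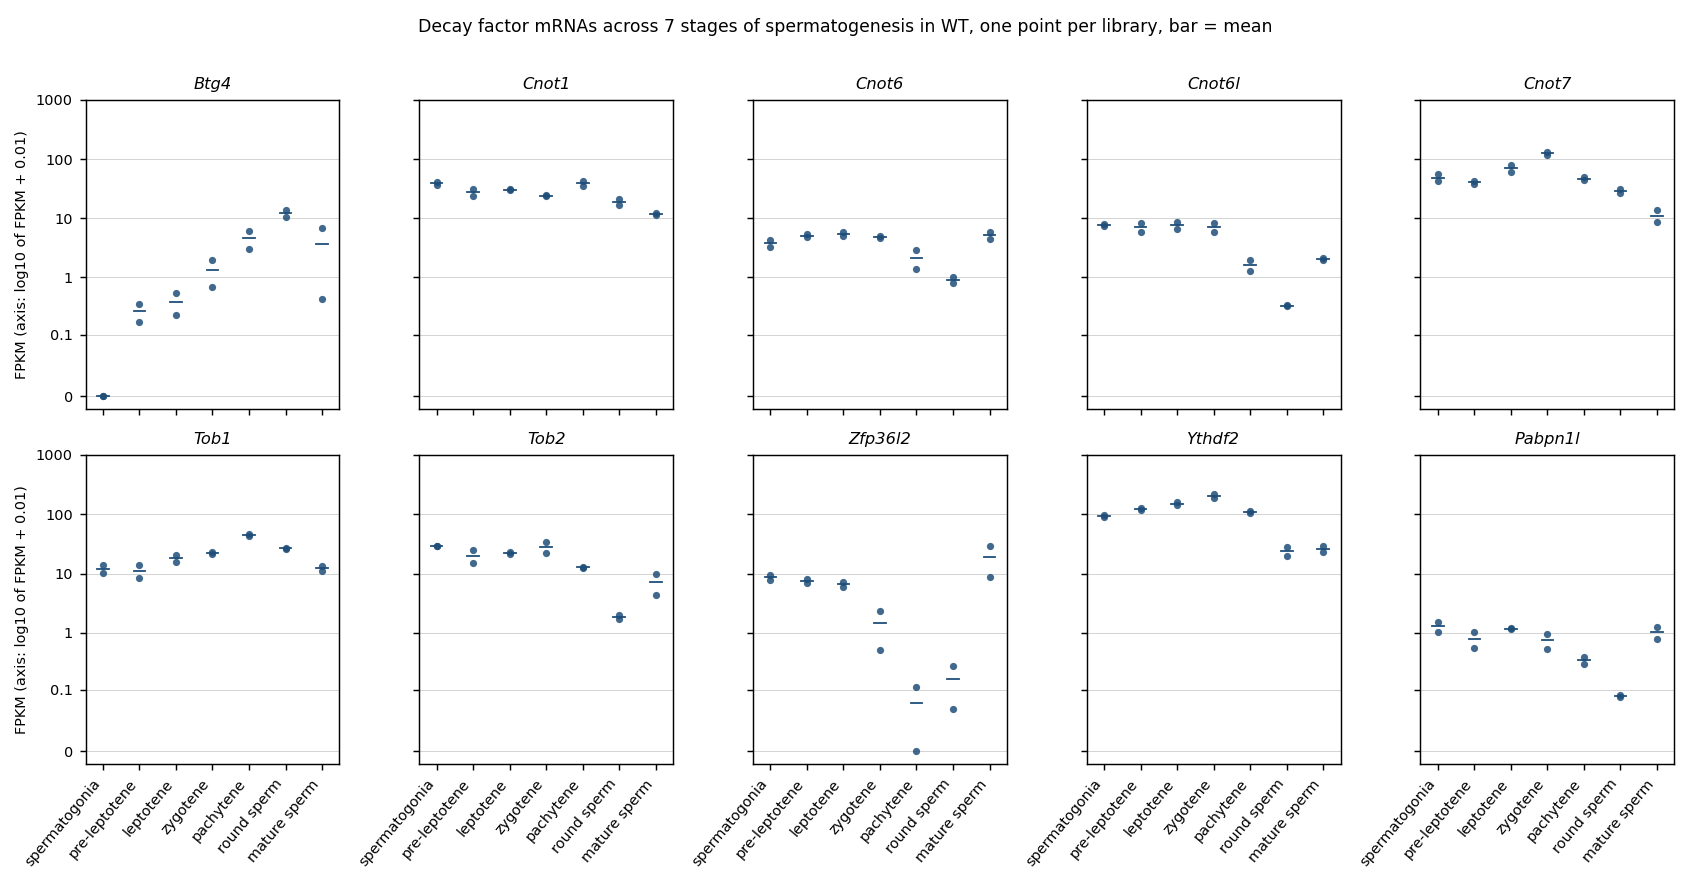
FPKM of each gene in the 7 WT spermatogenesis stages on a log axis of the value plus 0.01, with 1 point per library and a mark at the mean of the 2. Btg4 goes from 0 in spermatogonia to 13.8 and 10.5 in round sperm, and Ythdf2 from 221 and 188 in zygotene to 19.7 and 27.9997 in round sperm.

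Btg4 was low until pachytene and highest in round sperm. It had 0.172 and 0.357 FPKM in pre-leptotene, 0.534 and 0.229 in leptotene, 1.97 and 0.676 in zygotene, 3.07 and 6.16 in pachytene and 13.8 and 10.5 in round sperm. The pre-leptotene and leptotene values, and the lower value in mature sperm, rest on 3 fragments or fewer. The step from pachytene to round sperm gave 1.27 (limma adjusted p = 0.079) and was called when libraries were scaled by median ratios (1.95, adjusted p = 0.014) or with both groups alone in the fit (1.27, adjusted p = 0.016). With both groups alone the step from zygotene to pachytene was called too (1.28, adjusted p = 0.035). In mature sperm the libraries had 6.89 and 0.434, a fall of 1.96 on the log2 scale (adjusted p = 0.015) that was lost without mature sperm replicate 2 (-0.73, adjusted p = 0.17) or round sperm replicate 1 (-1.77, adjusted p = 0.074), and with both groups alone (adjusted p = 0.082). Pabpn1l stayed at or below 1.505 FPKM in all 14 libraries.

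Ythdf2 and Cnot7 reached their highest values in zygotene. Ythdf2 had 125 and 119 FPKM in pre-leptotene, 161 and 142 in leptotene, 221 and 188 in zygotene, 112 and 106 in pachytene, 19.7 and 27.9997 in round sperm and 29.5 and 22.7 in mature sperm. It fell from zygotene to pachytene (log2 difference -0.89, limma adjusted p = 0.0022) and from pachytene to round sperm (-2.17, adjusted p = 1.4e-06). Cnot7 had 80.6 and 61.1 in leptotene, 131 and 119 in zygotene (0.82 ± 0.23, adjusted p = 0.024) and 49.2 and 44.6 in pachytene (-1.39, adjusted p = 0.00041). In mature sperm it had 8.67 and 13.7 (-1.34 against round sperm, adjusted p = 0.00025). Its rise into zygotene was lost without leptotene replicate 2 (0.63, adjusted p = 0.22) or zygotene replicate 1 (0.76, adjusted p = 0.13) or 2 (0.89, adjusted p = 0.069). Its fall into round sperm (26.998 and 31.4, -0.67, adjusted p = 0.018) was lost without pachytene replicate 1 (-0.60, adjusted p = 0.092) or round sperm replicate 1 (-0.56, adjusted p = 0.10), and was 0.036 when libraries were scaled by median ratios, where Cnot1 (-0.31, adjusted p = 0.12) and Tob1 (-0.024, adjusted p = 0.92) were not called either.

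The CCR4-type subunits and the TOB adaptors changed places between early and late stages. Cnot6l was above Cnot6 in both libraries of every stage up to zygotene (ratio 1.23 to 2.28) and below it in pachytene, round and mature sperm (0.332 to 0.912). Cnot6l fell from 5.82 and 8.20 in zygotene to 1.27 and 2.02 in pachytene (-1.599, limma adjusted p = 0.00048), and Cnot6 from 4.72 and 5.04 to 1.39 and 2.93 (-0.94, adjusted p = 0.014). Tob1 was below Tob2 up to zygotene (ratio 0.348 to 0.963) and above it from pachytene on (1.38 to 15.8). Tob1 rose into pachytene (42.95 and 46.4 against 23.4 and 21.4, 0.96, adjusted p = 0.0076) while Tob2 fell (12.3 and 12.95 against 34.1 and 22.2, -1.06, adjusted p = 0.020). Cnot1 also rose there (35.5 and 42.3 against 24.9 and 23.7, 0.65, adjusted p = 0.014). Zfp36l2 fell from 6.01 and 7.31 in leptotene to 0.495 and 2.37 in zygotene (-1.77 ± 0.48, adjusted p = 0.020), was at 0.271 or lower in pachytene and round sperm, and had 28.6 and 8.72 in mature sperm (3.88 against round sperm, adjusted p = 3.1e-05). The mature sperm libraries correlated at 0.779, against 0.892 to 0.968 within the other stages, and 46.5% of all genes were higher in mature than in round sperm.

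In counts, 0 members of 8 were called by limma from spermatogonia to pre-leptotene or from pre-leptotene to leptotene (1, Cnot1, and 2, Cnot7 and Tob1, had an unadjusted p under 0.05), where 1.57% and 4.66% of all genes were higher and 4.59% and 0.597% lower. Into zygotene 1 of 8 was higher and 1 lower (background 7.31% and 19.5%), into pachytene 2 of 8 higher and 5 lower (24.2% and 32.9%), into round sperm 5 of 6 lower (40.8% higher and 41.4% lower), and into mature sperm 3 of 8 higher and 4 lower (46.5% and 31.8%). With 2 libraries per stage the smallest exact permutation p is 0.333. Several of these calls were lost when 1 library was left out. Zfp36l2 into zygotene was lost without leptotene replicate 1 (-1.89, limma adjusted p = 0.076) or 2 (-1.64, adjusted p = 0.15) or zygotene replicate 1 (-1.18, adjusted p = 0.17). Into pachytene, Cnot1 was lost without pachytene replicate 2 (0.53, adjusted p = 0.11) or zygotene replicate 1 (0.69, adjusted p = 0.053) or 2 (0.62, adjusted p = 0.078), and Cnot6 without pachytene replicate 1 (-0.58, adjusted p = 0.15) or zygotene replicate 1 (-0.98, adjusted p = 0.052) or 2 (-0.90, adjusted p = 0.072). Tob1 was lost without zygotene replicate 2 (0.91, adjusted p = 0.053), and Tob2 without pachytene replicate 1 (-1.03, adjusted p = 0.083) or 2 (-1.10, adjusted p = 0.066) or zygotene replicate 1 (-0.77, adjusted p = 0.16). Tob1 into round sperm (-0.73, adjusted p = 0.021) was lost without any 1 of the 4 libraries (-0.78 to -0.67), and Cnot1 into mature sperm (-0.63, adjusted p = 0.0097) without round sperm replicate 2 (-0.46, adjusted p = 0.076). Tob1 was called into leptotene without pre-leptotene replicate 1 (1.04, adjusted p = 0.032).

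In the sorted Piwil1-/- fractions no member was called by limma. The tested members were 6 in SPG/PL, 5 in LZ, 6 in P and 6 in D, and 1 of these 23 tests, Tob1 in LZ, had an unadjusted p under 0.05. Of all genes, 0.0166% were higher and 0% lower in SPG/PL, 0% and 0.0172% in LZ, 2.51% and 0.304% in P, and 8.42% and 1.89% in D. Piwil1 itself was lower in P (38.8 to 59.6 against 230 to 327, log2 difference -2.56, limma adjusted p = 0.0083), and not called in LZ (-2.50, adjusted p = 0.36) or D (-1.39, adjusted p = 0.15). Its groups did not overlap in D (93.1 to 124 against 267 to 302). Nor did they in SPG/PL (0.247 to 0.343 against 0.779 to 1.69), where it was too low to test. All fractions entered 1 fit, so the spread of Piwil1 in WT LZ (1.41 to 77.75) enters its test in D. In D cells, the fraction in which most genes of the table were called, Cnot1 had 59.9 to 76.9 in Piwil1-/- and 62.7 to 78.9 in WT (0.01 ± 0.20). Ythdf2 had 46.0 to 53.1 against 40.5 to 50.2 (0.14 ± 0.15), and Btg4 4.14 to 8.34 against 4.29 to 8.21 (0.03 ± 0.22). Tob1 had 29.4 to 34.1 against 32.2 to 43.2 (-0.23 ± 0.21). In the earlier fractions the groups overlapped as well. In P cells Cnot1 had 27.4 to 40.1 in Piwil1-/- and 29.9 to 43.9 in WT, Tob1 28.8 to 50.5 against 35.04 to 50.6, and Ythdf2 42.4 to 58.1 against 40.3 to 48.3. Btg4 was at 0 to 0.130 in WT SPG/PL cells, 1.76 to 3.73 in P cells and 4.29 to 8.21 in D cells, and Cnot1 at 6.61 to 9.99, 29.9 to 43.9 and 62.7 to 78.9. As in the staged cells, the level of Cnot6l was above that of Cnot6 in all 4 WT SPG/PL libraries (median ratio 1.64) and below it in all 4 WT P libraries (0.527), and Tob1 over Tob2 had a median ratio of 0.701 in SPG/PL and 6.06 in P. Pabpn1l was at 0 in all 4 Piwil1-/- D libraries and at 0 to 0.281 in WT, where the highest count was 4 fragments, so no difference was detectable at this depth.

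**Figure D5:**
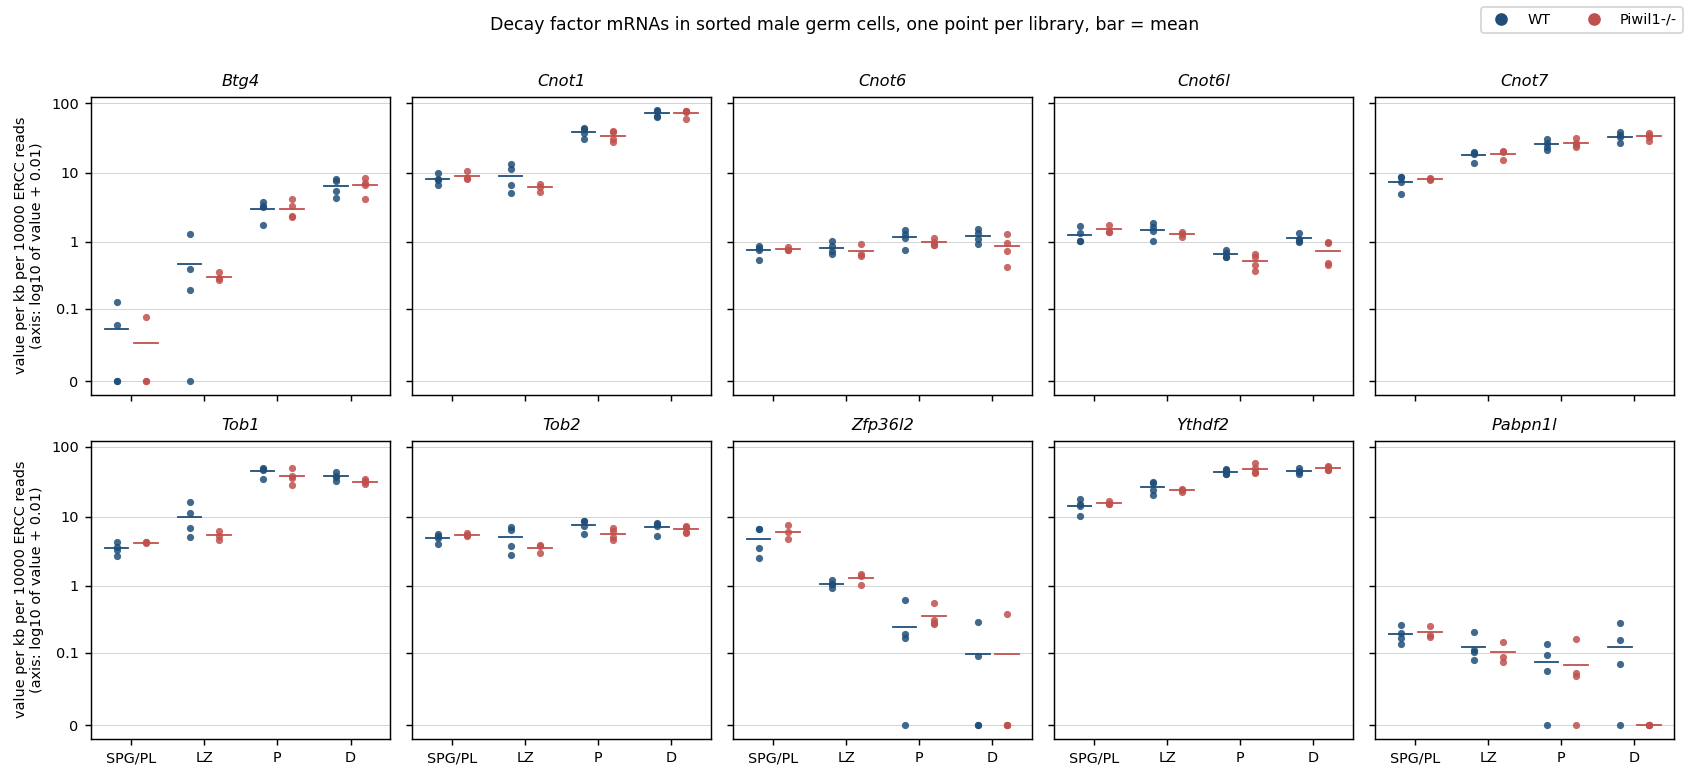
Normalised value of each gene in the 4 sorted fractions (SPG/PL, LZ, P and D) on a log axis of the value plus 0.01, with 1 point per library for WT and Piwil1-/- and the group mean marked. The groups overlap for every gene in every fraction, and WT LZ spreads most, with Tob1 between 5.13 and 16.1.

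The LZ fraction held the widest spread. Tob1 had 11.1, 16.1, 5.13 and 6.796 in WT and 5.22, 6.19 and 4.66 in Piwil1-/- (log2 difference -0.66 ± 0.23, limma adjusted p = 0.37), and Cnot1 had 11.2, 13.4, 5.06 and 6.61 against 6.96, 6.11 and 5.24 (-0.42 ± 0.22, adjusted p = 0.43). Both WT libraries numbered 1 were higher than both numbered 2. Testis somatic cell markers stood at 6.50, 4.45, 183 and 85.1 per 1000000 of the total in WT LZ 1A, 1B, 2A and 2B and at 27.2 to 54.4 in Piwil1-/-, with 4 of 4 matched markers above 0 in each group. Tnp1, a spermatid gene and the 1 of 4 spermatid markers matched, stood at 98.3, 128, 3.48 and 3.65 per 1000000 in the same WT libraries and at 0 in all 3 Piwil1-/- libraries. Piwil1 had 1.41 to 77.75 in WT LZ and 0.750 to 1.82 in Piwil1-/-. The part of these genes in the spread and in the difference was not tested. Without WT LZ 2A, Tob1 (-0.89, adjusted p = 0.014), Cnot1 (-0.64, adjusted p = 0.029) and Tob2 (-0.53, adjusted p = 0.048) were called lower. Without both libraries numbered 1, an alternative added after the data were seen, 0 members were called.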

How the data were processed

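The 10 genes and all other lists were chosen with earlier results of these data known. Oocytes and embryos were single-cell libraries (Smart-seq2) with ERCC spike-in RNA, and sorted fractions came from Hoechst-stained adult testis cells.

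Per the labels and the study's methods, the authors trimmed reads with Trim Galore 0.5.0, aligned them with STAR 2.9 and counted fragments per gene with featureCounts 1.6.4, multi-mapping reads included, so near-identical copies can share reads. The study names the hamster assembly and the labels also list a mouse build. The deposited values of oocytes, embryos and sorted fractions are a ratio of fragments per kilobase to 10000 ERCC reads. The deposited values of the spermatogenesis stages are FPKM, for which the total they are scaled to is not given in the sources used here. A separate testis table, and 2 columns that matched no sample's labels, were not used. All 36133 gene IDs matched the RefSeq gene table, which gave the symbols. No hamster sequence was used here.

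The value of 1 fragment was recovered in each of the 87 libraries from the steps between low values (whole numbers within a tolerance of 0.02). ERCC reads per library were 8111 to 978176 in oocytes and embryos and 29996 to 190472 in sorted fractions, and the scale of the spermatogenesis libraries was 1640718 to 6851083 fragments. Values resting on 3 fragments or fewer are named as such in places, not throughout.

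Each table was tested with limma 3.58.1 (R 4.3.3), with all groups of an experiment in 1 fit, on log2(value + 1) with a trended prior. A gene was tested where its value was above 2 in at least 40% of the libraries compared. Where fewer than 5000 genes passed, values above 0 were used instead. P-values were adjusted by Benjamini-Hochberg over all genes tested, with a threshold of 0.05. A two-sided exact permutation test over libraries was run beside it for each member. In all, 23 comparisons were made. The script was tested on simulated data with known changes. Named genes were the 10 members and, up to 3 genes of each wider list with the lowest adjusted p past the threshold in a comparison. The alternatives were another pseudocount (0.1), no filter on low values, scaling to equal totals or median ratios, only the groups compared in the fit, a stricter call (4-fold and adjusted p under 0.01), a replicate block, another WT group, and each library left out in turn. In the sorted fractions, libraries A and B of a number were also averaged. All alternatives were run for the members and not for the wider list.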

Additional observations from a re-analysis of the deposited data

Results flagged for a closer look

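Single libraries stood apart from the others of their group in 7 of 109 sets of 4 to 10 values examined, and chance gives about 1 in 20 such sets. In Piwil3-/- MII oocytes, Cnot1 was 5.97 in replicate 5 with the nearest value at 1.90, and Ythdf2 was 20.1 in replicate 3 with the nearest at 49.6. In WT at 34 h.p.e.a., Cnot6l was 0.0260 in replicate 5 with the nearest at 0.372, and Zfp36l2 was 0.00469 in replicate 5, a single fragment, with the other libraries at 0. In sorted Piwil1-/- cells, Cnot1 was 59.9 in D library 1B with the nearest at 74.2, Zfp36l2 was 0.387 in D library 1A with the others at 0, and Zfp36l2 was 0.569 in P library 1A with the nearest at 0.311.

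The effect of the maternal Piwil3-/- genotype differed between stages for 2 genes by an interaction contrast in limma. On the log2 scale, the Ythdf2 contrast was -3.80 between 11 and 34 h.p.e.a. and 1.79 between 34 and 54 h.p.e.a., and the Cnot6 contrast was -1.79 between 34 and 54 h.p.e.a.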

How the results depend on the processing

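Of 2653 values of members under an alternative, 2434 kept their direction and their side of the threshold, 168 lost the threshold, 38 passed it newly and 13 had the opposite sign where a call was involved. The causes were not tested. Counts of members called changed as follows. For Piwil3-/- at MII, the count of 1 was 0 with a pseudocount of 0.1, without the filter, at equal totals, by median ratios, with both groups alone and with the stricter call, and 6 with WT MII2 as the control. At 11 h.p.e.a. the count of 0 was 1 without both 8PEA titles. At 34 h.p.e.a. the count of 2 was 1 with both groups alone and 1 with the stricter call. At 54 h.p.e.a. the count of 3 was 1 at equal totals, 1 with the stricter call and 0 with both groups alone. For Piwil2-/- the count of 0 was 2 with WT MII as the control, and for Piwil4-/- the count of 5 was 1 with WT MII and 0 with the stricter call. In WT, MII against GV went from 8 lower to 1 higher (Cnot7) at equal totals and to 2 higher (Cnot6l and Cnot7) and 1 lower (Btg4) by median ratios, and 11 h.p.e.a. against MII from 5 to 2 with a pseudocount of 0.1, 1 at equal totals, 2 by median ratios and 0 with the stricter call. WT 34 against 11 h.p.e.a. went from 9 to 5 by median ratios, and 54 against 34 h.p.e.a. from 4 to 2 at equal totals, 2 by median ratios and 2 with the stricter call. The contrast of 11 to 34 h.p.e.a. went from 1 to 2 with a pseudocount of 0.1, 3 at equal totals, 3 by median ratios and 2 without both 8PEA titles, and that of 34 to 54 h.p.e.a. from 2 to 1 by median ratios, 1 with the groups alone and 0 with the stricter call. Zygotene went from 2 to 0 without the filter and 0 with the stricter call, pachytene from 7 to 0, mature sperm from 7 to 1 and round sperm from 5 to 2 with the stricter call, and round sperm to 3 by median ratios.

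With each library left out in turn, counts ran from 0 to 1 for Piwil3-/- at GV, MII and 11 h.p.e.a. They ran from 2 to 2 (34 h.p.e.a.) and 1 to 1 (54 h.p.e.a.) in later embryos, from 0 to 0 for Piwil2-/- and from 2 to 4 for Piwil4-/-. They ran from 6 to 8 for WT MII against GV, 2 to 5 for 11 h.p.e.a. against MII, 8 to 9 for 34 against 11 h.p.e.a. and 4 to 4 for 54 against 34 h.p.e.a. The contrasts gave 1 to 2 and 1 to 4. Pre-leptotene gave 0 to 0, leptotene 0 to 1, zygotene 0 to 1, pachytene 4 to 5, round sperm 2 to 4 and mature sperm 3 to 6. Sorted LZ gave 0 to 3 and the other fractions 0 to 0.

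Called values turned sign in these cases. With WT MII as the control, Cnot1 was 1.64 in Piwil2-/- and 0.13 in Piwil4-/-. For MII against GV, equal totals gave Cnot6 1.09, Cnot7 1.395 and Ythdf2 0.043, and median ratios gave Cnot6 0.73, Cnot6l 1.44 and Cnot7 1.20. For 34 against 11 h.p.e.a., Ythdf2 was 2.38 at equal totals and 3.16 by median ratios. For 54 against 34 h.p.e.a., Cnot7 was -1.68 and -1.53. Cnot7 in round sperm was 0.036 by median ratios.

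Replicate numbers did not pair the oocyte and embryo libraries: same-numbered deviations correlated at -0.00746 to 0.0768 for MII oocytes, and the 11 h.p.e.a. embryos gave -0.0392 to 0.0284. The 34 h.p.e.a. embryos gave -0.00229 to 0.0833 and Piwil2-/- with WT MII2 gave 0.0246 to 0.0739. Male germ cells were less uniform. The spermatogenesis stages gave -0.128 to 0.285, with 10 of 42 same-numbered pairs above 0.1. There, 10 of 14 libraries correlated best with one of their own number. The sorted fractions gave -0.439 to 0.276, with 16 of 98 pairs above 0.1 and 6 of 30 libraries best with their own number. With the number as a replicate block, the count was 1 at 11 h.p.e.a. (from 0), 2 for Piwil4-/- (from 5, with Cnot1 at -1.61, limma adjusted p = 0.21, Tob1 at 1.09, adjusted p = 0.38, and Pabpn1l at 0.74, adjusted p = 0.16), 3 for WT 11 h.p.e.a. against MII (from 5) and 1 for the contrast of 34 to 54 h.p.e.a. (from 2). All other counts were the same with the block. The genotypes share 1 number at GV and 0 at 54 h.p.e.a., so their block values come from the fit over all stages. At 34 h.p.e.a. depth limits Btg4, Cnot6 and Zfp36l2, which rest on 8 fragments or fewer in WT.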

Other observations

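In sorted Piwil1-/- D cells, where no member was called, 3 genes of the wider list were higher. Edc3, an enhancer of decapping, was 11.7 to 15.6 against 4.15 to 7.82 in WT (log2 difference 1.06 ± 0.17 (SE), limma adjusted p = 4.3e-05). Lsm14a, a P-body protein, was 27.9 to 32.9 against 13.7 to 20.6 (0.81 ± 0.14, adjusted p = 0.00012) and was also called in P cells (19.9 to 31.01 against 14.2 to 17.8, 0.51 ± 0.14, adjusted p = 0.0496). Cnot8, the paralog of Cnot7, was 13.1 to 14.9 against 8.11 to 10.8 (0.56 ± 0.18, adjusted p = 0.034). The groups did not overlap for these genes. In D cells, 8.42% of all genes were higher. Libraries A and B of a number may come from the same animal, and these genes were not tested with A and B averaged.

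In WT embryos, the wider list rose from 34 to 54 h.p.e.a. in 4 of 9 other deadenylase subunits, 7 of 14 decapping and exonuclease genes and 6 of 11 poly(A) tail genes, where 40.8% of all genes rose. Parn was 11.2 and 15.1 against 0 to 0.975 (3.36 ± 0.58, limma adjusted p = 2.3e-05), and the poly(A) polymerase Papola was 31.9 and 38.9 against 3.95 to 15.2 (2.30 ± 0.36, adjusted p = 4.5e-06). Pabpc1 was 38.9 and 40.9 against 0.306 to 13.7 (3.04 ± 0.55, adjusted p = 3.7e-05), while Pabpc1l was not called.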
